A study of Mus musculus with 53 samples.

Results

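The male paraventricular nucleus (PVN) of Nnat+/-p mice on a high-fat diet (HFD) was compared with the PVN of Nnat+/-p mice that stayed non-obese on chow. Members were chosen from the deposited labels by genotype, sex, nucleus, diet and weight, which gave 6 of the 53 libraries of the series. The HFD group held 3 Nnat+/-p mice (replicates 29, 30 and 31, by the numbers of the labels) that ate a 45% HFD and were labelled with weights of 43.1, 43.9 and 38.2 g. The non-obese group held 3 Nnat+/-p mice (replicates 18, 19 and 22) that ate chow and were labelled with 33.6, 34.3 and 27.4 g, all under the 35 g that the study set for non-obese males. Every HFD mouse was heavier than every non-obese mouse, so that diet and weight cannot be told apart between these groups. All 6 mice were adult C57BL/6 males that inherited a null Nnat allele from their father. According to the methods, heterozygous fathers of a null line were bred to wild-type mothers, and the HFD began at 4 weeks of age and lasted 3 months, whereas brains were taken at 13 to 14 weeks according to the labels. These times do not match, and the product that the methods name for the 45% HFD is generally known as a diet of higher fat content, so the composition and length of the diet are uncertain. The PVN was cut by laser from stained brain sections, and total RNA was made into libraries. The labels give each library a weight but no mouse identity or litter.

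Neuronatin (Nnat) is an imprinted gene that is read from the paternal copy only, so a null allele from the father leaves cells with almost no neuronatin RNA. It encodes a small membrane protein of the endoplasmic reticulum that is abundant in the hypothalamus. The PVN integrates signals of energy status from the arcuate nucleus and sends them on through neurons that make oxytocin (Oxt), vasopressin (Avp), corticotropin-releasing hormone (Crh) and thyrotropin-releasing hormone (Trh), and its melanocortin-responsive neurons restrain food intake.

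The label of genotype was held by every library in the comparison. Nnat was at 5.16, 4.02 and 1.21 CPM (the count relative to the depth of its library, scaled by TMM factors) in the HFD mice and at 2.66, 4.9 and 4.59 CPM in the non-obese mice. Across the male PVN, 10 Nnat+/-p libraries lay between 1.21 and 15.4 CPM and 9 Nnat+/+ libraries between 364 and 506 CPM. Nnat did not differ between the HFD and the non-obese Nnat+/-p mice beyond the spread between libraries (log2 fold change -0.20, SE 0.45, adjusted p = 0.978, edgeR's quasi-likelihood test).

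Transcripts of PVN neurons were found in every library of the comparison, but replicate 19 also held a transcript of the thalamus. Avp was found at 379, 213 and 179 CPM in the HFD mice and at 450, 197 and 360 CPM in the non-obese mice. Oxt was found at 988, 408 and 416 CPM and at 555, 201 and 434 CPM. Sim1, a transcription factor that PVN neurons need to form, lay at 125 to 161 CPM in the HFD mice and at 127, 37.6 and 167 CPM in the non-obese mice, with replicate 19 lowest. Replicate 19 also held 121 CPM of Tcf7l2, a transcription factor of thalamic neurons, against 10.0 to 16.9 CPM in the other 5 libraries. The 4 tested marker genes of arcuate neurons summed to 9.45 to 17.2 CPM with HFD and to 6.38 to 22.9 CPM in the non-obese mice. Outside these 6 libraries, 2 Nnat+/+ libraries of the fit (replicates 15 and 24) had almost none of the PVN transcripts, with 1.27 and 18.9 CPM of Avp, Oxt and Sim1 together.

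The HFD libraries were deeper, with 6667729, 7419338 and 7834090 counts (replicates 29, 30 and 31) against 4397439, 2268021 and 5569950 counts (replicates 18, 19 and 22). The groups did not overlap in depth (exact permutation test, two-sided, p = 0.1, which is the smallest p that 3 against 3 allows). A further quantity differed between libraries, namely the counts on genes of olfactory, vomeronasal and taste receptors, which sensory cells of the nose and tongue use. These 2000 genes held 482, 1251 and 135 CPM (by the total count, without TMM factors) in the non-obese mice and 60.3, 178 and 65.5 in the HFD mice (exact permutation test, two-sided, p = 0.2). Replicate 19 was highest, and replicate 22 lay below replicate 30.

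Of 17576 genes tested, 16 (0.091%) were called at an adjusted p under 0.25, the threshold of the study, and 15 of these were lower with HFD. With edgeR none of them passed an adjusted p under 0.05, and 1143 genes (6.5%) had an unadjusted p under 0.05. Ndufa5 was the gene called higher (0.00569% of the genes tested). The 15 genes called lower (0.0853%) were Alx4, Gm47791, Fam83d, Gm16638, Sardh, Vmn1r216, Gm11825, Cacna1f, Olfr411, Amtn, Gm10382, Fer1l6, Cfap44, Olfr285 and Gm25549. Among genes with a mean of at least 10 CPM over the 19 male PVN libraries, 178 were higher and 116 lower with HFD at an unadjusted p under 0.05. Among the 9160 genes below that mean, 52 were higher and 797 lower. The excess of lower genes thus lay among genes with few reads.

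Ndufa5 encodes a subunit of complex I, the first enzyme of the mitochondrial respiratory chain. Its position is chr6:24518666-24528013, minus strand (ENSMUSG00000023089, GRCm38), and no other annotated gene overlaps it. Its level was 92.5, 92.3 and 102 CPM in the HFD mice and 42.7, 51.5 and 59.2 CPM in the non-obese mice. The groups did not overlap, and each HFD library lay above each of the other 16 male PVN libraries, of which Nnat+/+ chow replicate 15 was the next at 92.2 CPM. The HFD mean of 95.6 ± 5.52 CPM (SD, n = 3) was 1.87-fold of the non-obese mean of 51.2 ± 8.26 CPM (SD, n = 3) in the fit (log2 fold change 0.90, SE 0.22, adjusted p = 0.236). The level was 73.3 ± 12.3 CPM (SD, n = 4) in the obese Nnat+/-p mice on chow, 78.3 ± 12.6 CPM (SD, n = 3) in Nnat+/+ on chow and 75.1 ± 7.27 CPM (SD, n = 6) in Nnat+/+ on HFD. The non-obese Nnat+/-p mice were thus the lowest group and the HFD-fed Nnat+/-p mice the highest. The log2 fold change between the diets was -0.06 (SE 0.18) in Nnat+/+ mice, and the difference between the genotypes was 0.96 (SE 0.28, unadjusted p = 0.00167), which did not pass adjustment over all genes. The fold of Ndufa5 kept its direction under all 16 alternatives (0.75 to 1.05), and it was called in 6 of them. It was not called without replicate 18, 19, 29, 30 or 31, where its log2 fold change stayed at 0.81 to 0.94.

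The start region of Ndufa5 is shown with that of Cfap44, the gene called lower with the least negative fold change, because both hold the letters bound by nuclear respiratory factor 1 (NRF1), a regulator of respiratory chain genes. The sequences are from RefSeq (GRCm38.p6) and run from 250 bases before to 50 after an annotated start. Ndufa5 is at chr6:24527477-24527776, minus strand, and Cfap44 at chr16:44394549-44394848, plus strand. Capitals mark the letters GCGCA, then any base, then GCGC, which were searched on both strands.
Ndufa5: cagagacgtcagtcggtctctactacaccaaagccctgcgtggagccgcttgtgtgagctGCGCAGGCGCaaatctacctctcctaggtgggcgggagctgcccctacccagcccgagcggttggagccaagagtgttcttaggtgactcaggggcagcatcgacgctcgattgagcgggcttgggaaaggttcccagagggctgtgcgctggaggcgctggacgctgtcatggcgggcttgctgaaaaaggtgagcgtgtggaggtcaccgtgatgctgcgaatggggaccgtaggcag
Cfap44: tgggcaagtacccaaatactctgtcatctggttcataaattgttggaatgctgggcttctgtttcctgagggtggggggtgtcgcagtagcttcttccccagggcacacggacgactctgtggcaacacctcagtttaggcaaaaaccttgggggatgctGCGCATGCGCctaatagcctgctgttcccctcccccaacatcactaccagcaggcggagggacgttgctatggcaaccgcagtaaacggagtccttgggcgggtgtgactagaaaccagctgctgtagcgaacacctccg

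Of the 16 genes called, 7 had a start region in the RefSeq table, and 2 of these held the motif. It was held by 5.19% of all genes with a region, and by 4.60% of all 32851 regions. The motif thus occurred in a gene that was higher with HFD and in a gene that was lower. Ndufa5 had 21 CpG dinucleotides in the region shown and 15 in the region of another annotated start (chr6:24527641-24527940), which also held the motif. The 6 lower genes with a region had 3 to 14, beside a median of 7 over all regions. A match of letters does not show that the factor binds there.

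The genes called lower are for the most part not known for a role in the PVN. Alx4 is a homeobox gene of the embryonic face and limbs, and Amtn encodes a protein of enamel. Sardh encodes sarcosine dehydrogenase, a mitochondrial enzyme known from liver. Cacna1f encodes a calcium channel subunit of photoreceptors, Cfap44 a protein of motile cilia and the sperm tail, and Fam83d a protein of the mitotic spindle. Olfr411 and Olfr285 are olfactory receptors and Vmn1r216 is a vomeronasal receptor. Gm16638 is annotated as antisense to Tmc3, Gm11825 is a processed pseudogene and Gm25549 a small nuclear RNA inside Mapkapk2. Gm10382 overlaps another gene on the opposite strand, Alx4 overlaps Ext2 and Sardh overlaps Sardhos, and since the strand setting of the counting is not given in the sources used here, reads of such partners cannot be told apart. Vmn1r216 overlaps a second annotated gene of the same name, and the receptors belong to large families of related genes that may share reads, so their counts are uncertain.

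These 15 genes moved together from library to library. Sardh was at 77.7, 364 and 0.798 CPM in the non-obese mice (replicates 18, 19 and 22) and at 8.02, 3.73 and 2.68 CPM in the HFD mice. Alx4 was at 30.7, 83.3 and 0 CPM and at 0.143, 0.574 and 0.268 CPM. Gm16638 was at 158, 581 and 2.79 CPM and at 7.59, 9.91 and 4.70 CPM. In all 15 genes replicate 19 was the highest of the 6 libraries, and in 7 of them replicate 22 had no count. The groups of Sardh, Alx4 and Gm16638 overlap, because replicate 22 lies at or below the HFD libraries. Groups that did not overlap were found for 4 of the 15, namely Cacna1f, Gm10382, Cfap44 and Olfr285, beside 6.46% of all genes tested in that direction. The 15 were chosen by the same contrast, so nothing is read from that count.

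Cfap44 was the most abundant of the lower genes in the HFD libraries. Its level was 31.9, 98.8 and 19.7 CPM in the non-obese mice and 10.9, 14.9 and 10.5 CPM in the HFD mice. The log2 fold change was -2.03 (SE 0.48, adjusted p = 0.236). Alx4 had the smallest p of all genes, with a log2 fold change of -6.74 (SE 1.22, adjusted p = 0.0666), and Sardh had -4.92 (SE 1.06, adjusted p = 0.176). Without replicate 19 the log2 fold change was -1.07 for Cfap44 and -2.99 for Sardh. For Vmn1r216, Gm11825, Cacna1f and Gm25549 no HFD library held a count, so the fitted fold change depends on the prior count. Against a floor of 3 counts over the HFD group, which covers counting error only, pooled counts of Vmn1r216 were at least 64.1-fold lower. Those of Gm25549 were at least 30.6-fold lower. Pooling hides the spread between mice, and the groups of both genes overlap, because replicate 22 had no count of either. Gm47791 and Amtn had 1 count in the HFD group, and their groups overlap as well. Their pooled ratios of the non-obese to the HFD mice were 527 (95% counting interval 93.8 to 20870) and 215 (37.9 to 8553).

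**Figure D1:**
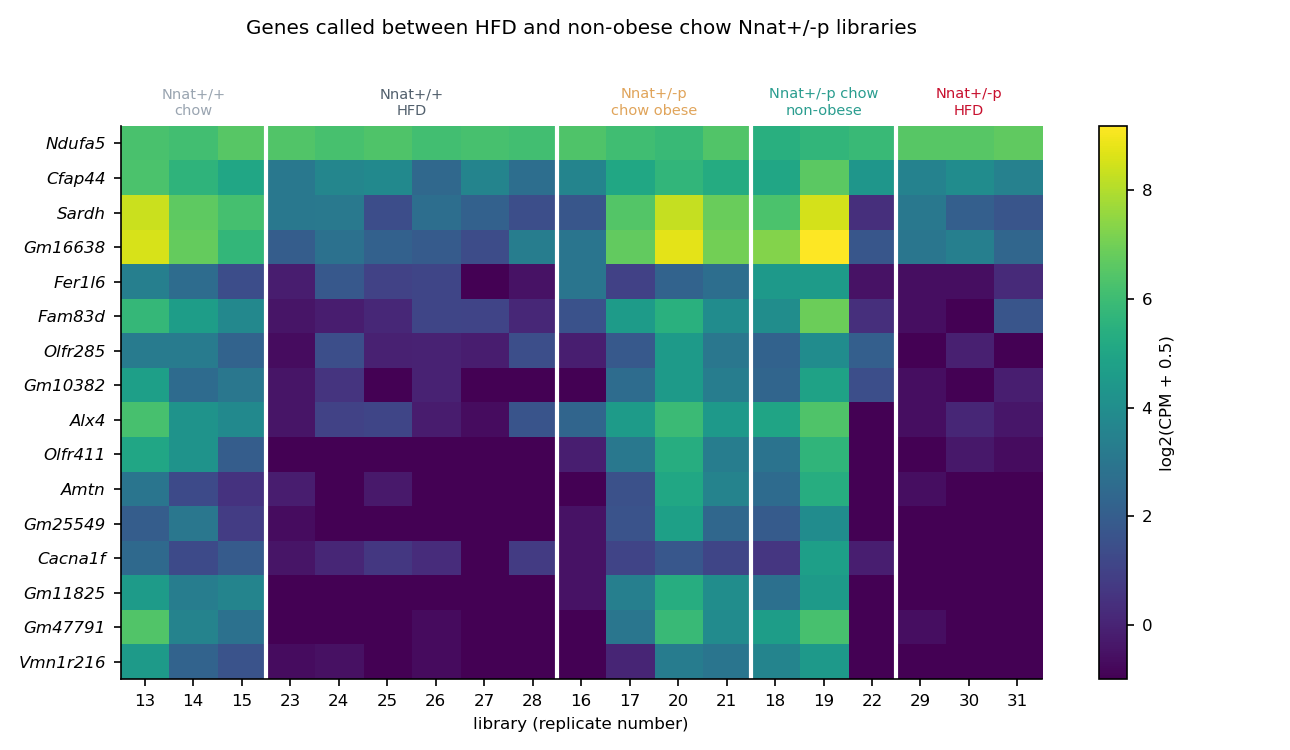
Level of the 16 genes called between the HFD and the non-obese Nnat+/-p mice, as log2(CPM + 0.5) in colour, in each of the 19 male PVN libraries (columns, by group and replicate number). The 15 lower genes are bright in replicate 19 and dark in replicate 22 of the non-obese group, and Ndufa5 lies at 92.3 to 102 CPM in the 3 HFD-fed Nnat+/-p mice.

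The summed level of the 15 lower genes split the 19 male PVN libraries into 2 sets without values between them. These genes were chosen for a lower level with HFD, and some passed the filter only through libraries outside the 6 compared. A split between chow and HFD libraries is therefore partly fixed by that choice, and the values are a description. The sum was 404, 1564 and 30.7 CPM in replicates 18, 19 and 22 and 27.4, 30.0 and 22.0 CPM in the HFD-fed Nnat+/-p mice. In the Nnat+/+ mice it was 228 to 1139 CPM in the 3 libraries on chow and 19.6 to 35.6 CPM in the 6 libraries on HFD. In the obese Nnat+/-p mice on chow it was 317, 1168 and 404 CPM in replicates 17, 20 and 21 and 37.3 CPM in replicate 16. Replicates 16 and 22 were therefore at the level of the HFD libraries although their labels say chow, and the other 8 chow libraries were high. The 3 libraries with the highest sum (19, 20 and 13) also had the highest share of sensory receptor counts, at 1251, 840 and 1237 CPM. The 3 receptor genes among the 15 are part of both quantities. With the log2 share of receptor counts as a covariate in the fit, an alternative added after the data were seen, none of the genes tested was called in edgeR (458 had an unadjusted p under 0.05), and the median log2 fold change of the 15 genes went from -6.74 to -2.47. Without replicate 19 none was called either (801 had an unadjusted p under 0.05), with a median of -4.96 for the 15 genes. Without replicate 22 the count rose to 128.

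**Figure D2:**
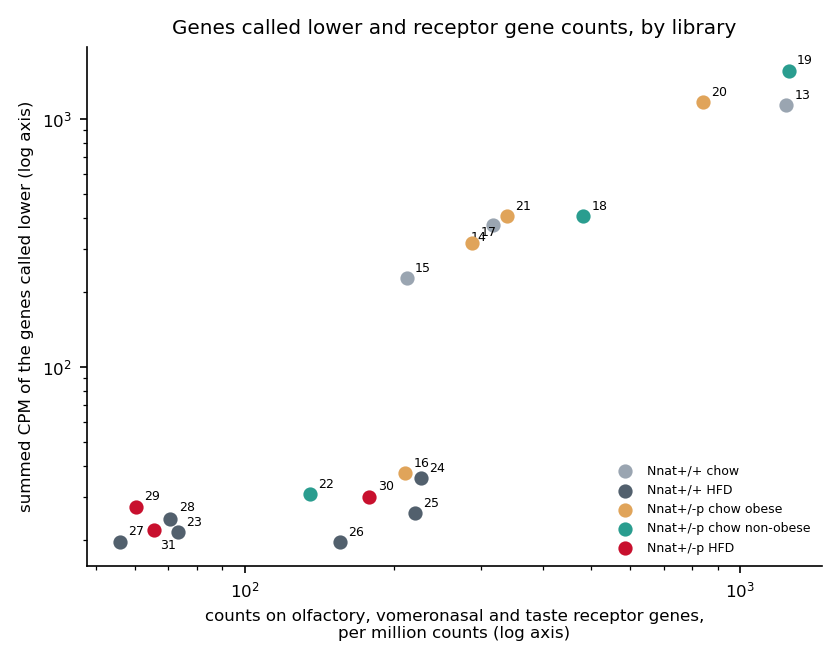
Summed CPM of the 15 genes called lower (vertical, log axis) against counts on olfactory, vomeronasal and taste receptor genes in CPM (horizontal, log axis), 1 point per male PVN library with its replicate number, coloured by group. Chow replicates 16 and 22 lie with the 9 HFD libraries at 19.6 to 37.3 CPM, and the other 8 chow libraries lie at 228 to 1564 CPM. The genes were chosen for a lower level with HFD in Nnat+/-p mice, so the split is partly fixed by that choice.

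The comparison of diets in Nnat+/+ mice contrasts none of the 6 libraries above, but the filter and the spread were taken over all 19 libraries. With the 6 libraries alone, 7 of the 16 called genes passed the filter, so the others were tested through libraries outside them. Agreement of the called genes between the genotypes is thus partly fixed by the filter and is given as a description. Between the diets in Nnat+/+ mice 251 genes (1.43%) were called, of which 55 were higher (0.313%) and 196 were lower (1.12%) with HFD. An unadjusted p under 0.05 was reached by 10.3% of the genes (4.11% higher and 6.15% lower). Of the 15 genes called lower in Nnat+/-p mice, 13 were also called lower in Nnat+/+ mice, which is 86.7% of the first list and 6.63% of the second, and all 15 had a negative fold change. The exceptions to the call were Cacna1f (log2 fold change -2.40, SE 1.10, adjusted p = 0.446) and Fer1l6 (-2.38, SE 0.89, adjusted p = 0.331). Sardh fell by 5.04 on the log2 scale in Nnat+/+ mice (SE 0.80, adjusted p = 0.00091), and Cfap44 fell by 2.48 (SE 0.39, adjusted p = 0.00091). Across the 17576 genes the fold changes of the 2 genotypes had a Pearson r of 0.43, and over the 8416 genes with a mean of at least 10 CPM of 0.33. These are descriptions across genes, which are not independent, and some libraries differ in depth and receptor counts in the same direction in both genotypes: chow replicates 13, 14, 18 and 19 were shallower and held more receptor counts than every HFD library of their genotype, while replicates 15 and 22 held fewer receptor counts than some of them.

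**Figure D3:**
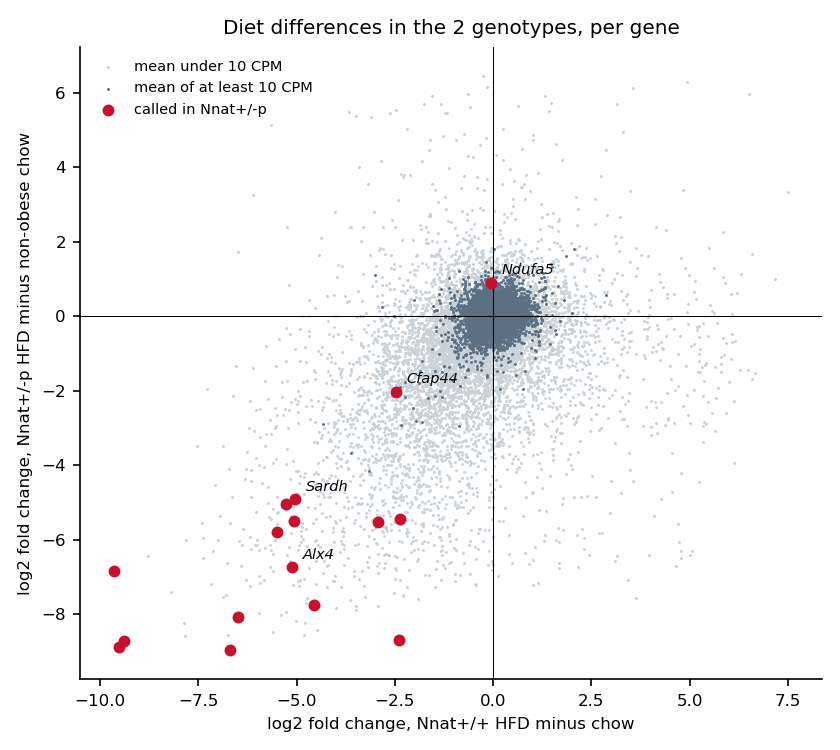
Log2 fold change between HFD and non-obese chow in Nnat+/-p mice (vertical) against that between HFD and chow in Nnat+/+ mice (horizontal), 1 point per gene tested, with genes of a mean of at least 10 CPM in dark grey and the 16 genes called in Nnat+/-p mice in red. The 15 genes called lower are below 0 on both axes, and Ndufa5 is at 0.90 and -0.06.

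The difference between the 2 diet effects was tested directly. No gene was called by edgeR (0%), with 675 (3.84%) at an unadjusted p under 0.05 (1.41% in the positive and 2.44% in the negative direction), and DESeq2 called 2. Ndufa5 was among the 4 genes with the smallest p in the positive direction, together with Nrgn, Srf and Gda. Nrgn, a calmodulin-binding protein of forebrain excitatory neurons, was at 15.0, 9.33 and 46.2 CPM with HFD and at 16.8, 9.39 and 6.38 CPM in the non-obese Nnat+/-p mice. Its difference of 4.12 (SE 0.91, unadjusted p = 7.01e-05) came with 252 CPM in Nnat+/+ chow replicate 15, one of the libraries without PVN transcripts, against 16.8 and 49.9 CPM in the other two, and it was 2.44 without replicate 15. Gda, guanine deaminase, was likewise highest in replicate 15, at 293 CPM, and its difference was 2.04, and 0.73 without that replicate. Srf, the serum response factor that drives activity-induced genes, was at 17.9, 15.5 and 15.8 CPM with HFD and at 13.3, 8.58 and 7.18 CPM in the non-obese mice, and its difference was 1.87 (SE 0.48, unadjusted p = 0.000504). In the negative direction the 4 genes were Kbtbd8, Gm10190, Gm43502 and Zfp54, and all of them had means under 10 CPM in both Nnat+/-p groups.

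The obese Nnat+/-p mice on chow had weights of 38.8 to 46.5 g, which overlap those of the HFD mice, and share the genotype. In the comparison of HFD with these mice the call was made for 46 genes (0.262%), with 5 higher (0.0284%) and 41 lower (0.233%). At an unadjusted p under 0.05 the share was 7.53%. Between the obese and the non-obese mice no gene was called by edgeR (787 genes, or 4.48%, had an unadjusted p under 0.05), and 14 were called by DESeq2. Both comparisons share libraries with the one above, so their values are given beside it only. Ndufa5 was 0.38 higher with HFD than in obese mice on the log2 scale (SE 0.20, adjusted p = 0.685) and 0.52 higher in obese than in non-obese mice (SE 0.20, adjusted p = 1). Sardh had a log2 fold change of -4.74 (SE 1.03, adjusted p = 0.144) against obese mice and of -0.18 (SE 0.81, adjusted p = 1) between obese and non-obese mice.

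The 12 genes with the smallest p in the positive direction, Ndufa5 apart, were not called (adjusted p 0.581 to 0.678). Groups that did not overlap were found for all 12, beside 5.68% of all genes tested in that direction, but the 12 were chosen by the same contrast, so nothing is read from that count. Among them were Ndufa5, Timm44, Tti1, Lgals3bp, Snora21, Rpl22, Rpl14, Opa3, Bod1, Mrpl52 and R3hcc1l. Timm44, part of the motor that pulls proteins into the mitochondrial matrix, was at 23.5, 24.7 and 31.4 CPM with HFD and at 14.5, 9.80 and 13.6 CPM in the non-obese mice (log2 fold change 1.06, SE 0.32, adjusted p = 0.581). Rpl22 and Rpl14, proteins of the large cytosolic ribosomal subunit, had log2 fold changes of 0.80 (SE 0.27, adjusted p = 0.615) and 0.86 (SE 0.28, adjusted p = 0.615). Snora21 is a small nucleolar RNA inside Rpl23, whose reads may be split between the 2 genes.

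The nuclear-encoded subunits of the respiratory chain, to which Ndufa5 belongs, were listed as a group after values had been seen, so their counts are a description. Of 76 subunits of complexes I to IV and the ATP synthase, 65 had a positive fold change, Ndufa5 was called, and 8 (10.5%) were higher and 0 lower at an unadjusted p under 0.05, beside 1.31% and 5.19% of all genes. Most subunits are abundant, and among all genes with a mean of at least 10 CPM the shares were 2.12% higher and 1.38% lower. The median log2 fold change of the subunits was 0.31, beside -0.07 over all genes tested. With genes of a mean of at least 10 CPM alone, it was 0.31 for the 67 subunits left and 0.09 for all genes. The summed level of the subunits was 4147, 4050 and 4181 CPM with HFD and 3828, 2943 and 3287 CPM in the non-obese mice. These 2 groups did not overlap, and replicate 19 was the lowest library of them. In Nnat+/+ mice the sum was 3175 to 4351 CPM on chow and 3528 to 4332 CPM on HFD. It was 2709 to 3979 CPM in the obese Nnat+/-p mice on chow. The HFD-fed Nnat+/-p mice thus lay within the range of both Nnat+/+ groups. Uqcrc1, a core subunit of complex III, was at 116, 103 and 119 CPM with HFD and at 93.9, 47.4 and 83.2 CPM in the non-obese mice (log2 fold change 0.58, SE 0.24, adjusted p = 0.703). Ndufb5, Ndufb9, Ndufb10, Cox7a2, Atp5k and Uqcrh were the others with an unadjusted p under 0.05, with log2 fold changes of 0.49 to 0.99. With the receptor share as a covariate the median of the 76 subunits was 0.12, with 45 of them positive and 1 higher at an unadjusted p under 0.05. Without replicate 19 the median was 0.27, with 59 positive and 3 higher at that p. In Nnat+/+ mice the median difference between the diets was 0.12. Of the 61 subunits with a start region in the RefSeq table, 17 (27.9%) held the NRF1 letters, beside 5.19% of all genes in it. Ndufa5, Uqcrc1 and Atp5k were among them, and 3 of the 7 subunits with a region and an unadjusted p under 0.05 held the motif. The 7 tested subunits encoded by mitochondrial DNA had a median of -0.13, and mitochondrial transcripts took 27.8% to 35.5% of the counts with HFD and 26.9% to 34.5% in the non-obese mice.

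The cytosolic ribosomal proteins, listed in the same way, had a median of 0.19 over 68 genes. At an unadjusted p under 0.05, 3 were higher and 1 lower (5.88% together, beside 6.5% of all genes). The median was 0.06 with the receptor share as a covariate and 0.07 without replicate 19. The summed level of these proteins was 2562, 2596 and 2481 CPM with HFD and 2184, 1550 and 2352 CPM in the non-obese mice, with replicate 19 lowest. In Nnat+/+ mice their median difference between diets was larger, at 0.36.

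**Figure D4:**
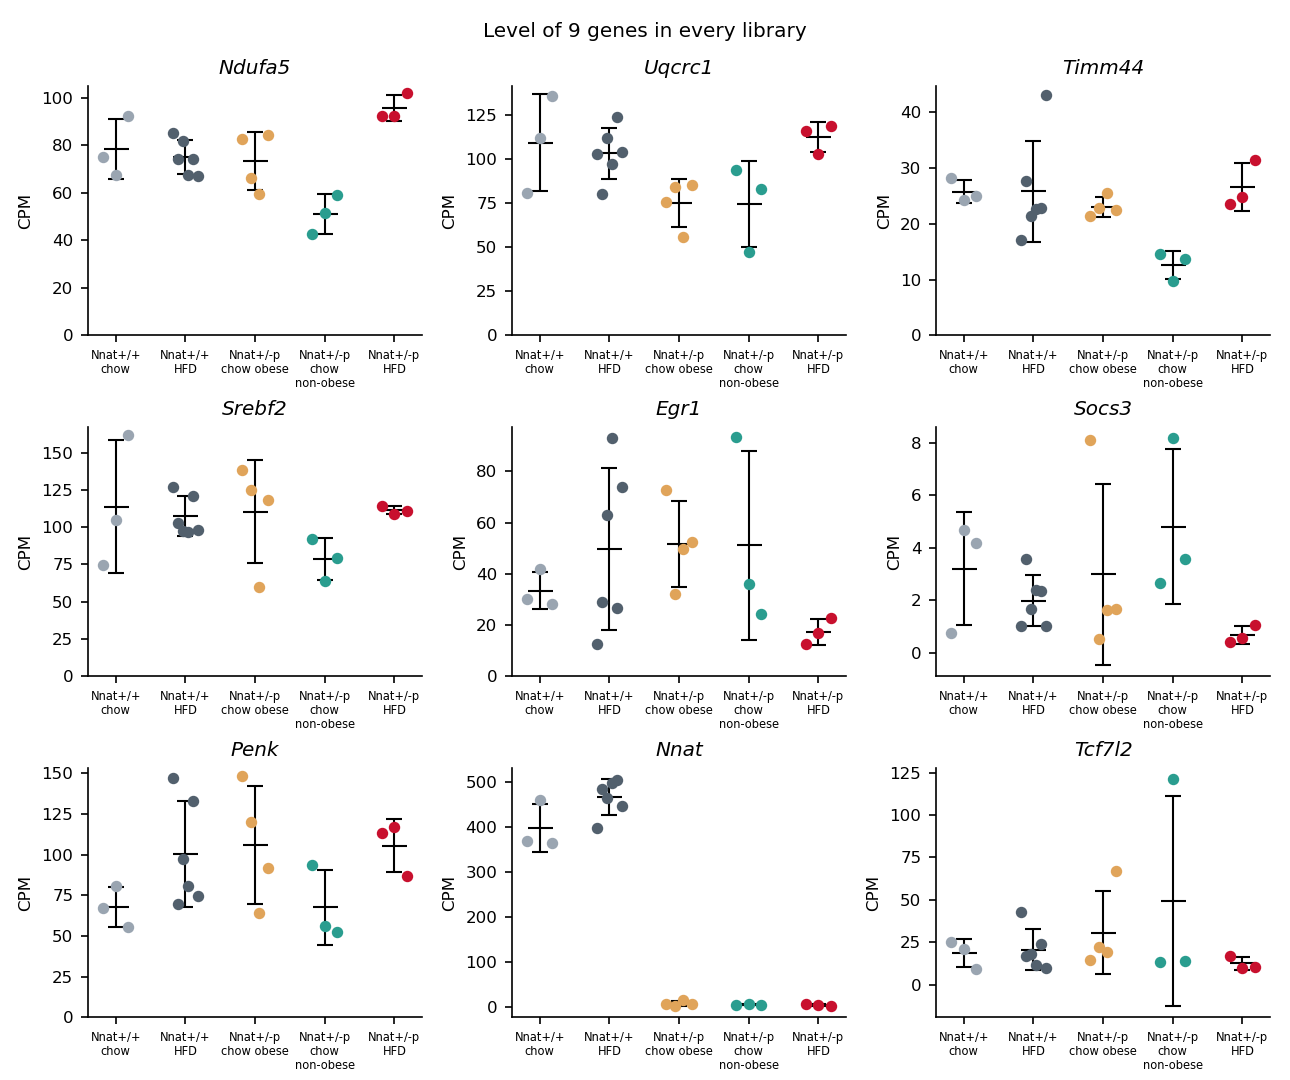
Level in CPM (vertical) of 9 genes in every male PVN library (points) by group, with the group mean and SD as black bars. Ndufa5 and Timm44 are lowest by mean in the 3 non-obese Nnat+/-p mice, at 42.7 to 59.2 and 9.80 to 14.5 CPM, Egr1 and Socs3 are lowest by mean in the HFD-fed Nnat+/-p mice, and a single high library (replicate 19, 121 CPM) sets the non-obese mean of Tcf7l2.

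Further gene groups were taken from 28 lists of genes of PVN neurons, feeding, metabolism and other cell types. Of their 362 members tested none passed the call, while 15 (4.14%) reached an unadjusted p under 0.05, against 6.5% of all genes. No list can therefore be said to have moved, and the values that follow are descriptions of members chosen by p or level. Groups that did not overlap are given as a description too. They were found for 5.68% of all genes tested with HFD higher and for 6.46% with HFD lower.

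Among the 13 neuropeptides of the PVN tested, Penk (proenkephalin) had an unadjusted p under 0.05. Penk was at 113, 117 and 86.7 CPM with HFD and at 93.9, 56.4 and 52.5 CPM in the non-obese mice (log2 fold change 0.64, SE 0.29, adjusted p = 0.739). The groups overlap, through replicates 18 and 31. Crh was at 64.1 to 66.7 CPM with HFD and at 31.9 to 86.7 CPM in the non-obese mice, and Trh at 127 to 142 and at 101 to 180 CPM. For the list the median log2 fold change was -0.21.

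Among the 24 receptors for appetite signals, Npy2r (a receptor for neuropeptide Y and peptide YY) was at 15.8, 18.4 and 9.39 CPM with HFD and at 7.98, 5.72 and 6.98 CPM in the non-obese mice (log2 fold change 1.06, SE 0.52, adjusted p = 0.763). Ntsr1, the neurotensin receptor, was at 1.86, 4.02 and 3.22 CPM and at 0.818, 1.63 and 0.399 CPM (1.74, SE 1.00, adjusted p = 0.83). Both had groups that did not overlap. Such groups were found for 3 of the 24 receptors with HFD higher and for 0 with HFD lower, beside 5.68% and 6.46% of all genes. The melanocortin receptor Mc4r was at 4.30, 14.4 and 1.88 CPM with HFD and at 11.9, 10.2 and 8.98 CPM in the non-obese mice (-0.60, SE 0.78, adjusted p = 0.945). Glp1r, the receptor of glucagon-like peptide 1, was at 13.7, 14.6 and 9.93 CPM and at 9.00, 6.54 and 9.97 CPM (0.57, SE 0.50, adjusted p = 0.89). Glp1r was at 0.213 to 2.18 CPM in Nnat+/+ mice on chow and at 3.75 to 14.5 CPM on HFD, and its difference between the genotypes was -2.30 (SE 0.72, unadjusted p = 0.00305, not called).

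Egr1, an immediate early gene that neuronal activity induces, was at 12.5, 16.8 and 22.8 CPM with HFD and at 93.3, 35.9 and 24.5 CPM in the non-obese mice. The groups did not overlap, and replicates 22 and 31 were close. The log2 fold change was -1.57 (SE 0.48, adjusted p = 0.581), and -0.76 without replicate 18. In Nnat+/+ mice it was 0.57 (SE 0.41), and the difference between the genotypes was -2.14 (SE 0.64, unadjusted p = 0.00197, not called). Fosl2 was at 37.5, 36.5 and 37.7 CPM with HFD and at 55.0, 54.3 and 53.1 CPM in the non-obese mice (-0.54, SE 0.54, adjusted p = 0.921). The median of the 15 genes of this list was -0.25, and 0.35 without replicate 18.

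Socs3, an inhibitor of leptin receptor signalling that leptin itself induces, was at 0.43, 0.574 and 1.07 CPM with HFD and at 2.66, 8.17 and 3.59 CPM in the non-obese mice. The groups did not overlap, and the log2 fold change was -2.74 (SE 1.12, adjusted p = 0.703). The other 17 genes of insulin and leptin signalling had an unadjusted p of 0.05 or more, and the median of the list was 0.03. Among clock genes, Bhlhe40 was at 26.1, 24.3 and 30.1 CPM against 39.3, 49.8 and 35.5 CPM (-0.63, SE 0.26, adjusted p = 0.703). Nr1d1, which encodes the repressor REV-ERB alpha, had -0.74 (SE 0.34, adjusted p = 0.742), and -0.16 without replicate 18, with 71.0 CPM in replicate 18 and 22.3 to 30.2 CPM in the other 5 libraries.

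Among the 23 genes of sterol and fatty acid synthesis, Srebf2, a transcription factor that induces enzymes of cholesterol synthesis, was at 114, 109 and 111 CPM with HFD and at 92.2, 64.1 and 79.0 CPM in the non-obese mice (0.50, SE 0.26, adjusted p = 0.786). The groups of Srebf2 did not overlap, and those of Fads2 (a fatty acid desaturase) and Scd2 (a stearoyl-CoA desaturase) did not overlap either, with the HFD mice higher in each. In all, 5 of the 23 genes had such groups with HFD higher and 0 with HFD lower, beside 5.68% and 6.46% of all genes. An unadjusted p under 0.05 was reached by 1 of the 23. The median of the list was 0.16, and -0.04 with the receptor share as a covariate. The 18 genes of fatty acid oxidation and ketone use had a median of -0.09, with none at an unadjusted p under 0.05.

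Signal peptidase and chaperones of the endoplasmic reticulum, where neuronatin resides, had a median of 0.12 over 22 genes, with none at an unadjusted p under 0.05. Hspa5, the main chaperone there, was at 511, 453 and 459 CPM with HFD and at 530, 264 and 510 CPM in the non-obese mice, with replicate 19 lowest. Among 34 imprinted genes tested, Impact (515, 585 and 538 CPM against 503, 344 and 377 CPM) and Asb4 (31.1, 31.9 and 31.0 CPM against 13.7, 15.9 and 26.1 CPM) had an unadjusted p under 0.05 in the positive direction. Their log2 fold changes were 0.42 (SE 0.20, adjusted p = 0.759) and 0.74 (SE 0.36, adjusted p = 0.763).

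The makeup of the dissections was read from marker lists. In a bulk sample, fewer cells of a type and less RNA per cell cannot be told apart. Of 11 markers of myelinating oligodendrocytes, 10 had a positive fold change, with a median of 0.55 and none at an unadjusted p under 0.05. They summed to 564 to 658 CPM with HFD and to 379, 583 and 389 CPM in the non-obese mice, and their median was 0.24 to 0.72 over the alternatives. Of 14 markers of microglia, 9 had a positive fold change (median 0.35). Ctss was higher at an unadjusted p under 0.05 (0.70, SE 0.31, adjusted p = 0.72), and Tmem119, which defines resident microglia, was at 3.58, 5.89 and 2.42 CPM with HFD and at 6.75, 15.5 and 13.6 CPM in the non-obese mice (-1.58, SE 0.80, adjusted p = 0.782). The medians were 0.20 for 14 markers of astrocytes, -0.07 for 13 of vascular cells, 0.73 for 5 of red blood cells, -0.28 for 5 of the choroid plexus and -0.42 for 7 of the thalamus. The markers of the thalamus summed to 201 to 238 CPM with HFD and to 162 to 539 CPM in the non-obese mice. The part of the marker lists in the differences between the groups was not tested.

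Pmch, the hormone precursor of lateral hypothalamic neurons, had no count in the 3 non-obese mice and lay at 1.15, 1.44 and 3.22 CPM with HFD. Against a floor of 3 counts over the non-obese group it was at least 8.08-fold higher with HFD (adjusted p = 0.734 in edgeR and 0.000646 in DESeq2). The HFD group held 42 counts in all. The log2 fold change of 19.9 in DESeq2 has no count in the non-obese group behind it, so that p is not read as support. Pmch was called in 2 of 14 alternatives and in 0 of the 6 fits with 1 replicate left out. Rax, a transcription factor of tanycytes, was at 0, 2.04 and 5.39 CPM in the non-obese mice and had no count with HFD. By pooled counts it was at least 18.5-fold lower (adjusted p = 0.615 in edgeR), although the groups overlap through the non-obese library at 0.

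**Figure D5:**
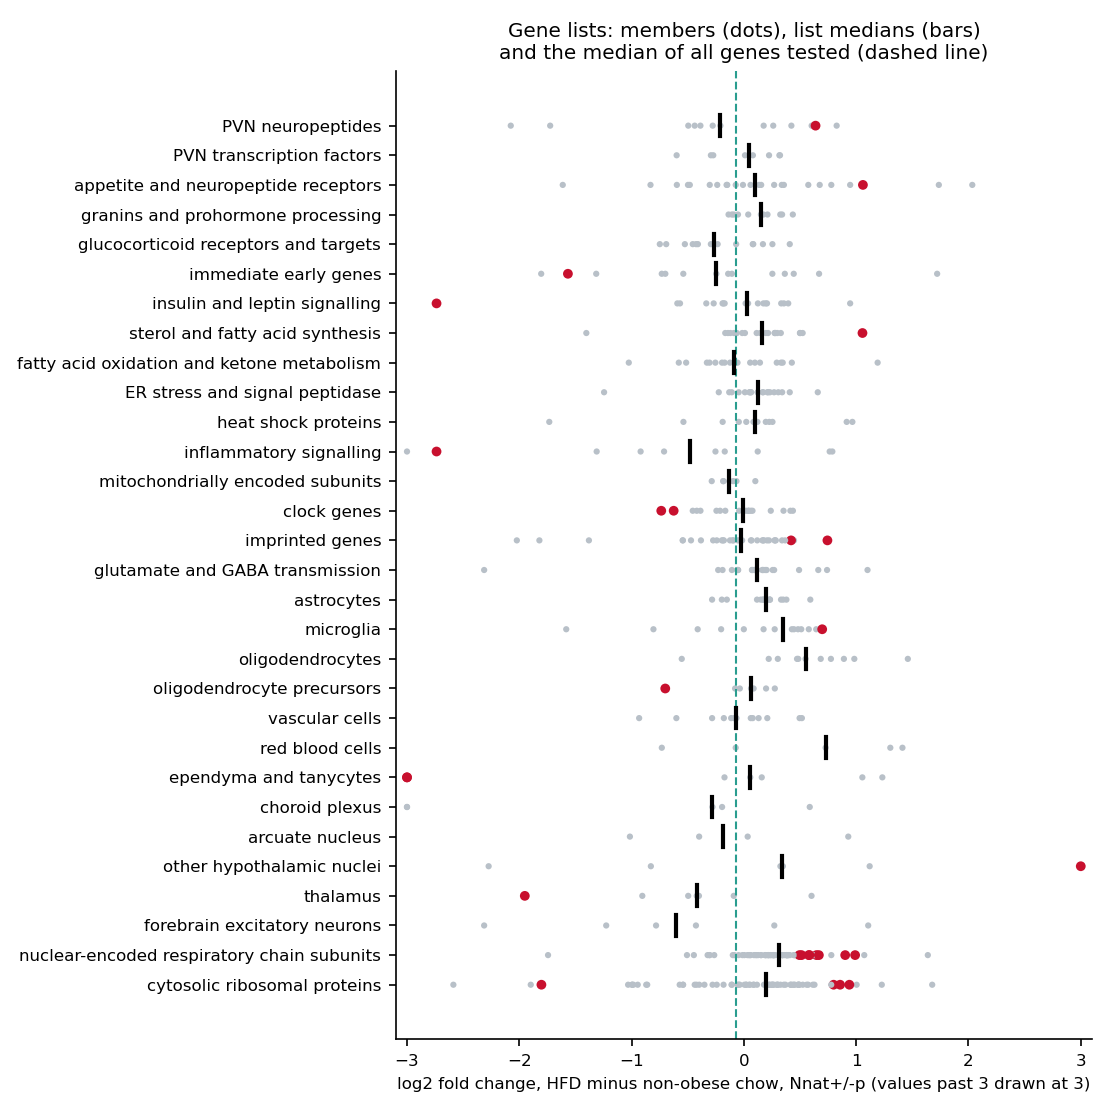
Log2 fold change between HFD and non-obese Nnat+/-p mice (horizontal, values past 3 in either direction drawn at 3) of the members of the 28 lists and of the 2 lists added after values were seen (dots, red where the unadjusted p was under 0.05), with each list's median as a black bar and the median of all genes tested (-0.07) as a dashed line. The respiratory chain subunits have a median of 0.31, and 8 of them are red.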

How the data were processed

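The authors deposited raw read counts per gene, as whole numbers, for the male PVN. Per the labels and the study's methods, laser-captured tissue gave low-input stranded total RNA libraries that were sequenced as single-end reads, and the submitters' processing notes name STAR 2.5.0a and GRCm38. The counting tool, annotation and strand setting are not given in the sources used here. Of 53379 gene identifiers, 53274 were matched to GENCODE M21 (GRCm38).

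All 19 male PVN libraries with a group were fitted together in R 4.3.3 with edgeR 4.0.16 (5 groups, TMM factors, filterByExpr with a minimum count of 10, quasi-likelihood test), as the groups then share 1 estimate of the spread, with 14 residual degrees of freedom. Adjusted p-values are Benjamini-Hochberg values over all genes tested, and SEs follow from the F statistic. A library whose labels and table name different nuclei (replicate 32) was left out. The members and lists were chosen with earlier results of these data known. Named were Nnat, 12 genes per direction by smallest p (called ones first), 4 in each direction for the difference between genotypes, and called members of each list with up to 4 more by p or mean. Olfr285, Cfap44, Gm25549, Crh, Mc4r, Glp1r, Fads2 and the subunits of the respiratory chain and ribosome fall outside this rule and were named after their values were seen. Some genes that the rule names are not reported here. Alternatives were an adjusted p under 0.05, DESeq2 1.42.0, RLE factors, no filter on low counts (every gene with more than 1 count in all), a fit restricted to the libraries of each comparison, voom quality weights in limma 3.58.1, leaving out single replicates, and replicates 24 and 30 left out, whose labelled weights belong to mice of the other genotype elsewhere in the series. Another 3 were added after the data were seen.

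On simulated counts for this comparison (17576 genes), the fit called 18% of 50 genes changed 2-fold, 48% of 50 changed 4-fold and 74% of 50 changed 32-fold. The labels do not state that libraries came from separate animals beyond their weights, so p-values measure the spread between these libraries. No 2 libraries held identical counts. Intervals and floors cover counting error only.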

Additional observations from a re-analysis of the deposited data

How the results depend on the processing

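The comparison of HFD with non-obese Nnat+/-p mice called 16 genes, and none at an adjusted p under 0.05 (0). It called 209 with DESeq2 (4 higher, 205 lower), 176 without the filter on low counts, 32 with limma, 3 without replicates 24 and 30, 0 with the receptor share as a covariate, 5 among genes with a mean of at least 10 CPM and 120 without replicates 15, 16 and 24. With 1 replicate left out the count was 0 (without 19, or without 29) to 128 (without 22). All 16 genes stayed called with DESeq2 and without the filter on low counts, and 13 with RLE factors. Of the 16, only 2 stayed called with limma, 6 with only the groups compared, 3 without replicates 24 and 30, and 0 without replicate 19 or 29. None of those tested changed sign under any alternative. The difference between genotypes called 0 genes, but 2 with DESeq2, 30 without the filter on low counts, 1 without replicates 24 and 30 and 4 without replicates 15, 16 and 24, and 0 to 3 with 1 replicate left out. The comparison of diets in Nnat+/+ mice called 251 genes, 26 at an adjusted p under 0.05, 469 with DESeq2, 1134 without the filter on low counts, 18 with the covariate, 33 among genes with a mean of at least 10 CPM, 1876 without replicates 15, 16 and 24, and 82 to 1083 with 1 replicate left out (1083 without 15, 82 without 26). HFD against obese Nnat+/-p mice called 46, but 0 at an adjusted p under 0.05, 421 with DESeq2, 258 without the filter on low counts, 372 with limma, 1 without replicates 24 and 30, 0 with the covariate, 10 among genes with a mean of at least 10 CPM, 315 without replicates 15, 16 and 24, and 0 to 130 with 1 replicate left out. Obese against non-obese mice called 0, but 14 with DESeq2, 7 without the filter on low counts and 4 without replicates 15, 16 and 24, and 0 with any 1 replicate left out. The cause of these changes was not tested. Leaving out a library of a group of 3 also let more genes through the filter (19497 to 20555 for the comparison of HFD with non-obese mice). With only the groups compared, 13712 genes passed the filter, 7 of the 16 called genes among them. No paired analysis was possible because the replicate numbers run from 1 to 53 and no 2 groups share one. Few mice per group limit what could be called. The calls changed with the filter on low counts, as given above, and 7 of the 16 called genes had a mean of at least 10 CPM.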

Other observations

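A library outside every comparison, replicate 32, is listed in the PVN table while its label names another nucleus. It held 7348988 counts, with Avp at 277, Oxt at 584 and Sim1 at 160 CPM, against 2.45 for Pomc and 0.816 for Agrp. Its Nnat level was 4.76 CPM. Ndufa5 was at 101 CPM there, Sardh at 4.63, Alx4 at 0.953, Egr1 at 108 and the sensory receptor genes at 136. Egr1 was therefore above the level of all 3 HFD-fed Nnat+/-p mice of the comparison, and Ndufa5 within their range of 92.3 to 102 CPM (these values are scaled by the total count alone, without a TMM factor).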
